A study of Mus musculus with 1111 samples.

Results

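Glycolysis splits glucose into pyruvate in the cytosol. The 10 enzymes described here run from its entry to lactate, without the triose phosphate isomerase step: Hk2, Gpi1, Pfkl, Aldoa, Gapdh, Pgk1, Pgam1, Eno1, Pkm and Ldha. They are 10 of the 35583 genes in the count tables and were taken by gene symbol, 1 gene for each of these steps. The cells were single microglia, the resident macrophages of the brain, isolated from mice of 3 months, 20 hours after labelled plasma proteins were injected. The label was Atto647N, a far-red fluorescent dye coupled through an NHS ester, and cells were sorted by its intensity into the groups plasma none, plasma low and plasma high. All 3 groups therefore came from injected mice, and plasma none is the group of cells without signal, not of untreated animals. Genotype, strain, sex and the number of animals are not given in the sources used here. The RNA was read by Smart-seq2, a plate method that copies full-length transcripts of 1 cell per well.

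Of 1045 cells with a column in the tables, 987 passed a minimum of 50000 reads and 500 genes: 35.1% of them plasma none, 35.6% plasma low and 29.4%, or 290 cells, plasma high. The labels place each cell in a set of wells called TH 1, TH 2 or TH 3, without saying what TH stands for, so reads were summed by group and TH number into 9 sums of 21309816 to 49323522 reads. Levels are read counts of a gene scaled to a common sequencing depth (CPM), and a comparison is the log2 ratio of (CPM + 1) within each TH number, as mean ± SD over the 3 TH numbers. No label ties a cell to an animal, so each group is 1 sample, no test was possible, and the SD is the spread between sets of wells. On every TH number plasma none held plate columns 1 to 8, plasma low 9 to 16 and plasma high 17 to 23, so uptake group and plate column cannot be told apart.

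Depth and cell quality moved with the groups. For plasma none, low and high, median reads per cell were 217146 ± 53263, 250870 ± 94331 and 289558 ± 99803 (SD over 3 TH numbers). Median genes with a read were 1696 ± 56.4, 1999 ± 223.01 and 1939 ± 92, and the median share of mitochondrial reads was 0.604% ± 0.056, 0.819% ± 0.085 and 0.975% ± 0.205. The part of these in the results below was not tested. The 8 microglia markers summed to 45387 to 54371 CPM in all sums, and the defining markers of neutrophils and lymphocytes were at 0. Oligodendrocyte markers, 2 of 6 at 0 (Mog and Cldn11), summed to 21.2 to 68.9 CPM in the plasma none sums, 28.6 to 60.9 in those of plasma low and 56.4 to 83.4 in those of plasma high, and their part in the results was not tested. Lists of border-associated macrophages, monocytes, endothelial cells, astrocytes and red cells stayed under 28 CPM in every sum, and neuronal markers reached 57.98 CPM in 1 plasma high sum and 2.3 elsewhere.

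Hexokinase traps glucose as its 6-phosphate, phosphofructokinase commits the sugar to breakdown, and the enzymes from aldolase on yield ATP and pyruvate, which lactate dehydrogenase can turn to lactate. Several of these genes are textbook targets of the hypoxia-inducible factors, whose response element has ACGTG as 1 form of its core, and of Myc, which binds CACGTG. Other forms of that core were not counted, so a window without ACGTG may hold another form. To show these letters, the 250 bases before the RefSeq start site are printed for 4 of the members (RefSeq, GRCm38.p6, mm10). Hk2 is at chr6:82774455-82774704 on the minus strand. Pgk1 at chrX:106186850-106187099, Pkm at chr9:59656326-59656575 and Ldha at chr7:46845554-46845803 are all on the plus strand. Each is written 5′ to 3′ on the gene's strand, and capitals mark ACGTG on either strand, so its reverse reads CACGT.
Hk2: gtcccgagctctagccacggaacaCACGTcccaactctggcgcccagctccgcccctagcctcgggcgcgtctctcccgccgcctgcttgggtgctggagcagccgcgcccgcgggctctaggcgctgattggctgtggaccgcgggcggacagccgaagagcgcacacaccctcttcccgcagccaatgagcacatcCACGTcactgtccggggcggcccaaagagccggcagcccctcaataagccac
Pgk1: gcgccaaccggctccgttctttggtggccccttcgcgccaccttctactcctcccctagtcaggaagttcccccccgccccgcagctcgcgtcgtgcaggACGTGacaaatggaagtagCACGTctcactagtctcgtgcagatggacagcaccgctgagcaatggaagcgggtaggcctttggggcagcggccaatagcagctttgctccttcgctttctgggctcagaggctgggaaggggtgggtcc
Pkm: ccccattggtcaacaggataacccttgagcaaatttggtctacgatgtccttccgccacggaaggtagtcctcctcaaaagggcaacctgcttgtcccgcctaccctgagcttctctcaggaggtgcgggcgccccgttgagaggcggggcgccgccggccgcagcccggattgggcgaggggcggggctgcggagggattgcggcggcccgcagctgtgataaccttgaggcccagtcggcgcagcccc
Ldha: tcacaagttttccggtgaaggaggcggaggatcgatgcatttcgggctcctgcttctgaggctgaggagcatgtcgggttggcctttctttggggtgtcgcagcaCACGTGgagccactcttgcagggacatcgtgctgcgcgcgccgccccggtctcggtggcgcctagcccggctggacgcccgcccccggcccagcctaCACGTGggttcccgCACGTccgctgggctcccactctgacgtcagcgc
RefSeq lists several starts for Ldha, Pkm, Aldoa and Eno1, and the start nearest the 5′ end of the gene in the tables was taken, which for Ldha lies 4329 bases inside the gene. Counting both strands, ACGTG stood 5 times before Ldha, with 2 copies of CACGTG, each of which holds ACGTG once on either strand. It stood 2 times before Hk2, 2 times before Pgk1 and 1 time before Pgam1. It was in none of the windows of Gpi1, Pfkl, Aldoa, Gapdh, Eno1 and Pkm. Among all 32851 windows of this length, 16.6% held ACGTG and 6.02% held CACGTG. A match is a description of these letters only.

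Levels between genes were compared per kilobase of exon, with the exons of all annotated transcripts of a gene merged. That length was 4.133 kb for Gapdh, 2.911 kb for Aldoa and 5.969 kb for Hk2. The transcripts with the longest coding sequence had 1273, 1549 and 5513 bases. The order of the genes therefore depends on the length used, and no other was tried. On merged exons Aldoa was first in plasma none, at 69.8 ± 16.1 CPM per kb (SD, n = 3 TH numbers). Gapdh followed at 54.9 ± 9.58, Hk2 at 54.04 ± 36.6 and Ldha at 53.1 ± 14.3, and these 4 did not differ beyond their spread. Pkm stood at 26.9 ± 4.37 CPM per kb and Eno1 at 22.1 ± 6.62, again within their spread. Gpi1 had 13.8 ± 3.41, Pgk1 8.32 ± 3.97, Pfkl 7.56 ± 3.45 and Pgam1 4.66 ± 0.83 CPM per kb, the last 3 without a gap larger than their spread. These levels are uncertain for genes with close copies: stretches of 50 bases found in other genes made up 90.4% of the Gapdh transcript, most of them in pseudogenes, 72.2% of Eno1, 67.96% of Pgk1 and 41.5% of Pgam1. The share was 39.3% for Pkm, 25.3% for Gpi1, 16.6% for Ldha, 13.5% for Aldoa, 0.054% for Pfkl and 0 for Hk2. Per the file headers, the columns of TH 2 and TH 3 come from alignments named as holding only top hits, while those of TH 1 carry no such words. How reads with several matches were counted is otherwise not given in the sources used here, and such reads can lower a gene's level in every group.

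**Figure D1:**
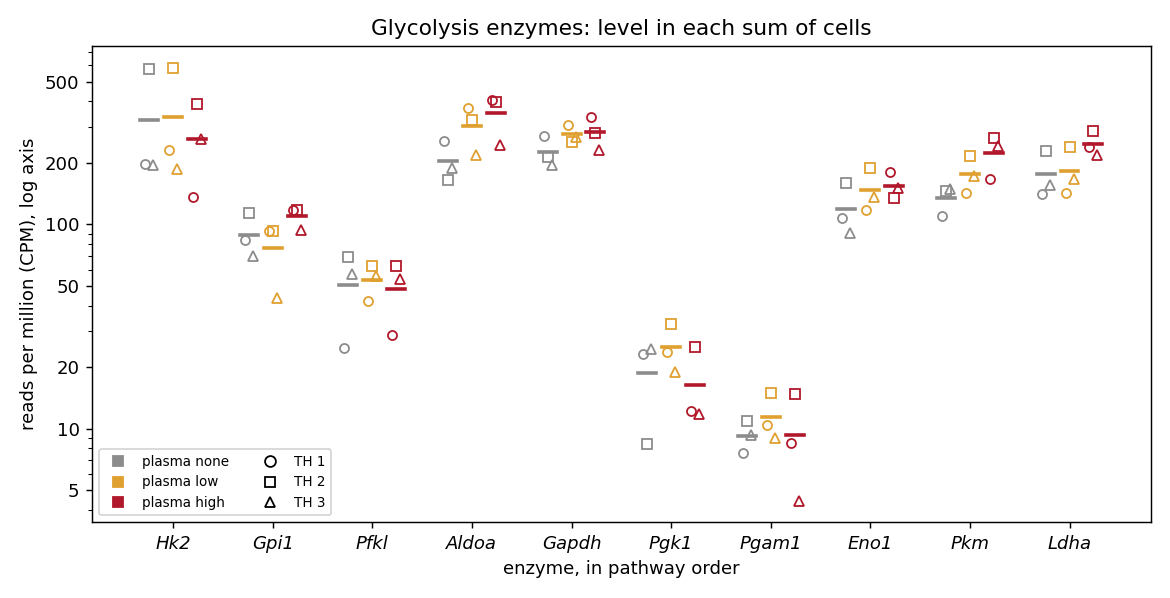
Level of each enzyme in CPM (log axis) in the 9 sums of cells; colours are the uptake groups, symbols the TH numbers and bars the mean of 3 sums. Gpi1, Aldoa, Gapdh, Eno1, Pkm and Ldha have their highest means in plasma high. Hk2 in TH 2 lies above TH 1 and TH 3 in all groups, least so in plasma high, and Pgk1 and Pgam1 lie under 33 CPM.

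Plasma high set against plasma none asks how the enzymes differ between cells with the most and with no plasma signal. Aldoa, Pkm, Ldha, Gpi1 and Gapdh were higher in plasma high in 3 of 3 TH numbers, and no enzyme was lower in 3 of 3. Among the 5534 genes tested, which had a mean of 20 CPM or more and were seen in 10% or more of the cells of a group, 18.8% were higher in 3 of 3 and 13.8% were lower. Of the 806 genes with at least 200 CPM, 25.4% were higher. No enzyme reached 2-fold with the same sign in 3 of 3, which 5.15% of the tested genes did. The median log2 ratio over all 10 enzymes was 0.31, beside 0.05 over the tested genes. Pgk1 and Pgam1 were under 20 CPM and are not among the genes tested.

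Pkm encodes pyruvate kinase, which makes pyruvate and ATP (ENSMUSG00000032294, chr9:59656368-59679375, plus strand). Its level was 109.5, 146.3 and 148.4 CPM in TH 1, 2 and 3 of plasma none. Plasma low had 142.2, 215.5 and 172.2 CPM and plasma high 166.7, 264.05 and 241.4. Plasma high and plasma none did not overlap, and within each TH number the order was none, low, high. How many of all tested genes have groups that do not overlap was not counted, so this is not read as particular to Pkm. The log2 ratio of high against none was 0.72 ± 0.12, a 1.64-fold higher level. Over pooled cells plasma none had 138.5 CPM (exact 95% Poisson interval 135.96 to 141.1) and plasma high 221.03 CPM (218.2 to 223.9), intervals that cover counting error only. The gene Gm49759 overlaps Pkm on the same strand, and Hk2, Gpi1, Aldoa and Gapdh each overlap 1 gene of the opposite strand (Gm17034, Gm26762, Fam57b and Iffo1), whose reads cannot be told apart without strand.

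Aldoa encodes aldolase A, which splits fructose 1,6-bisphosphate into a pair of triose phosphates (ENSMUSG00000030695, chr7:126795234-126800751, minus strand). Plasma none had 255.6, 165.5 and 188.5 CPM, plasma low 369.4, 323.3 and 219.2, and plasma high 406.4, 398.4 and 244.6, in the order TH 1, 2 and 3. The order none, low, high again held within each TH number, while the groups overlapped across them because TH 3 of plasma high lay below TH 1 of plasma none. The ratio was 0.77 ± 0.45, and its TH numbers ran from 0.37 in TH 3 to 1.26 in TH 2. The symbol stands on a second row of the tables, which had 0 CPM in every sum and was not used.

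Ldha encodes the A subunit of lactate dehydrogenase, which turns pyruvate to lactate (ENSMUSG00000063229, chr7:46841475-46855627, plus strand). The plasma none sums had 141.5, 229.7 and 155.5 CPM, plasma low 141.7, 239.2 and 167.2, and plasma high 238.5, 285.8 and 218.3. Plasma none and low were nearly level, plasma high was above both in each TH number, and the ranges overlapped through TH 2. The ratio of high against none was 0.52 ± 0.22. It was 0.31 with both signs over the TH numbers when each cell was thinned to 50000 reads.

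Gapdh, the glyceraldehyde phosphate dehydrogenase often used as a reference gene (ENSMUSG00000057666, chr6:125161715-125166467, minus strand), had 271.2, 213.9 and 195.1 CPM in plasma none. Plasma low had 307.5, 253.8 and 268.7 CPM and plasma high 336.4, 279.1 and 231.4. The ratio of high against none was 0.31 ± 0.07, small but with little spread, and the groups overlapped through TH 1 of plasma none. Without the outermost wells of the plates it was 0.18.

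Gpi1, the glucose phosphate isomerase that follows hexokinase (ENSMUSG00000036427, chr7:34201330-34230336, minus strand), had 83.6, 113.3 and 70.3 CPM in plasma none. Plasma low had 93.2, 93.1 and 43.4 CPM and plasma high 117.99, 117.5 and 93.5. Plasma high was the top group in each TH number, with a ratio to plasma none of 0.32 ± 0.23, which in TH 2 was only 0.05. Eno1, the enolase that makes phosphoenolpyruvate (ENSMUSG00000063524, chr4:150236721-150248879, plus strand), came next, with 106.9, 158.7 and 90.5 CPM for plasma none, 116.98, 189.7 and 135.9 for plasma low, and 179.5, 134.3 and 150.2 for plasma high. It was higher than plasma none in TH 1 and TH 3 of plasma high and lower in TH 2, with a ratio of 0.41 ± 0.56.

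Hk2, the hexokinase that traps glucose in the cell (ENSMUSG00000000628, chr6:82725025-82774454, minus strand), differed more between TH numbers than between groups. For plasma none the sums were 196.9, 574.9 and 195.9 CPM, for plasma low 230.04, 585.7 and 187.3, and for plasma high 136.4, 389.0 and 260.8. In TH 2 its mean over the groups was 2.57 times that of TH 1 and TH 3, a factor that was 0.93 to 1.65 for the other 9 enzymes. The ratio of high against none was -0.23 ± 0.55, with both signs. The remaining 3 enzymes had both signs too. Pfkl, the liver-type phosphofructokinase (ENSMUSG00000020277, chr10:77986947-78010083, minus strand), ran from 24.9 to 69.6 CPM over the 9 sums, with a ratio of -0.01 ± 0.18. Pgk1, the phosphoglycerate kinase (ENSMUSG00000062070, chrX:106187100-106203699, plus strand), ran from 8.4 to 32.6 CPM, with -0.13 ± 1.39. Pgam1, the phosphoglycerate mutase (ENSMUSG00000011752, chr19:41911923-41918660, plus strand), ran from 4.4 to 14.9 CPM, with -0.12 ± 0.71. The SDs of Pgk1 and Pgam1 were several times their mean ratios, and the mean ratio of Pfkl was near 0.

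**Figure D2:**
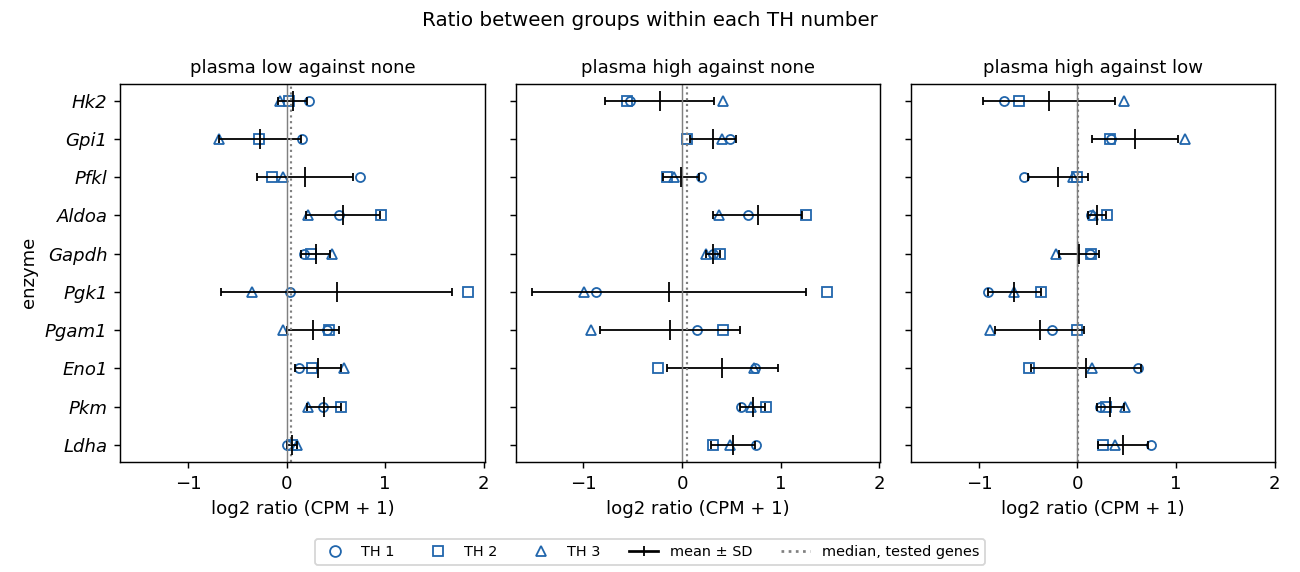
Log2 ratio of (CPM + 1) for each enzyme in the 3 comparisons; symbols are TH numbers, black bars the mean ± SD over them and the dotted line the median of all tested genes. In plasma high against none, all 3 symbols of Gpi1, Aldoa, Gapdh, Pkm and Ldha lie right of 0.

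Plasma low against plasma none shares its reference with the first comparison, so the values stand side by side and are not independent. Aldoa (0.57 ± 0.37), Pkm (0.38 ± 0.17), Eno1 (0.32 ± 0.23), Gapdh (0.30 ± 0.15) and Ldha (0.05 ± 0.05) were higher in 3 of 3 TH numbers, and no enzyme was lower in 3 of 3. The Ldha difference was near 0, and it had the opposite sign, -0.10, with each cell thinned to 50000 reads. The Aldoa ratio was 0.37 without TH 2, that of Eno1 0.19 without TH 3 and that of Ldha 0.03 without TH 3. Among the 5489 genes tested here, 16.7% were higher in 3 of 3, 11.8% were lower and 2.64% passed 2-fold, while 17.2% of those with at least 200 CPM were higher. The median over the 10 enzymes was 0.28, beside 0.05 over the tested genes. Gpi1 was -0.27 ± 0.42 and Hk2 0.06 ± 0.15, both with mixed signs.

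Plasma high against plasma low compares the sorted groups that both carry signal. Gpi1 (0.59 ± 0.44), Ldha (0.46 ± 0.25), Pkm (0.34 ± 0.13) and Aldoa (0.20 ± 0.09) were higher in 3 of 3 TH numbers. With each cell thinned to 50000 reads, Ldha and Aldoa no longer were, and Aldoa also not with equal weight per cell. Pgk1 (-0.64 ± 0.27), Pgam1 (-0.38 ± 0.45) and Pfkl (-0.20 ± 0.30) were lower in 3 of 3, though Pfkl and Pgam1 differed by 0.01 or less in TH 2. Pfkl was -0.02 without TH 1 and Pgam1 -0.13 without TH 3. Pgam1 was under 20 CPM, so among the 9 enzymes tested here 2 were lower. Among 5709 genes tested, 14.1% were higher in 3 of 3, 13.1% were lower and 3.28% passed 2-fold. The sums of Gpi1 did not overlap between plasma high and low, which was not counted over all tested genes, and its ratio was 0.33 without TH 3. The median over the 10 enzymes was 0.05, beside 0.01 over the tested genes, so the enzymes split between higher and lower here. With DESeq2 size factors, 1 enzyme was lower in 3 of 3 in place of 3.

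A sum over cells can be higher because more cells have a read or because those cells have more reads. Each cell was therefore thinned to 50000 reads. Pkm had a read in 29.8% of plasma none cells (exact Clopper-Pearson 95% interval over pooled cells 25 to 34.9), 41.6% of plasma low cells (36.4 to 46.9) and 46.2% of plasma high cells (40.4 to 52.1). As deposited, without thinning, these shares were 31.2%, 42.7% and 48.3%. The mean reads in cells with a read were 20.4 ± 2.63, 20.4 ± 2.69 and 23.2 ± 6.27, within their spread. The same contrast held for Aldoa, with shares of 39.3%, 52.99% and 54.1% and 25.9 ± 3.34, 28.6 ± 3.48 and 30.1 ± 8.81 reads in positive cells. Eno1 had shares of 41.04%, 55.3% and 58.97%, and Gapdh 69.9%, 81.5% and 80.3%. Ldha had shares of 28.03%, 36.5% and 40.3%, while its reads per positive cell were lower than in plasma none, by a log2 ratio of -0.46 ± 0.21 in plasma low and -0.24 ± 0.34 in plasma high. For Gpi1 the share was 17.6%, 19.1% and 27.2%, the step lying between plasma low and high. Hk2 had 58.4%, 64.7% and 59.7%.

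**Figure D3:**
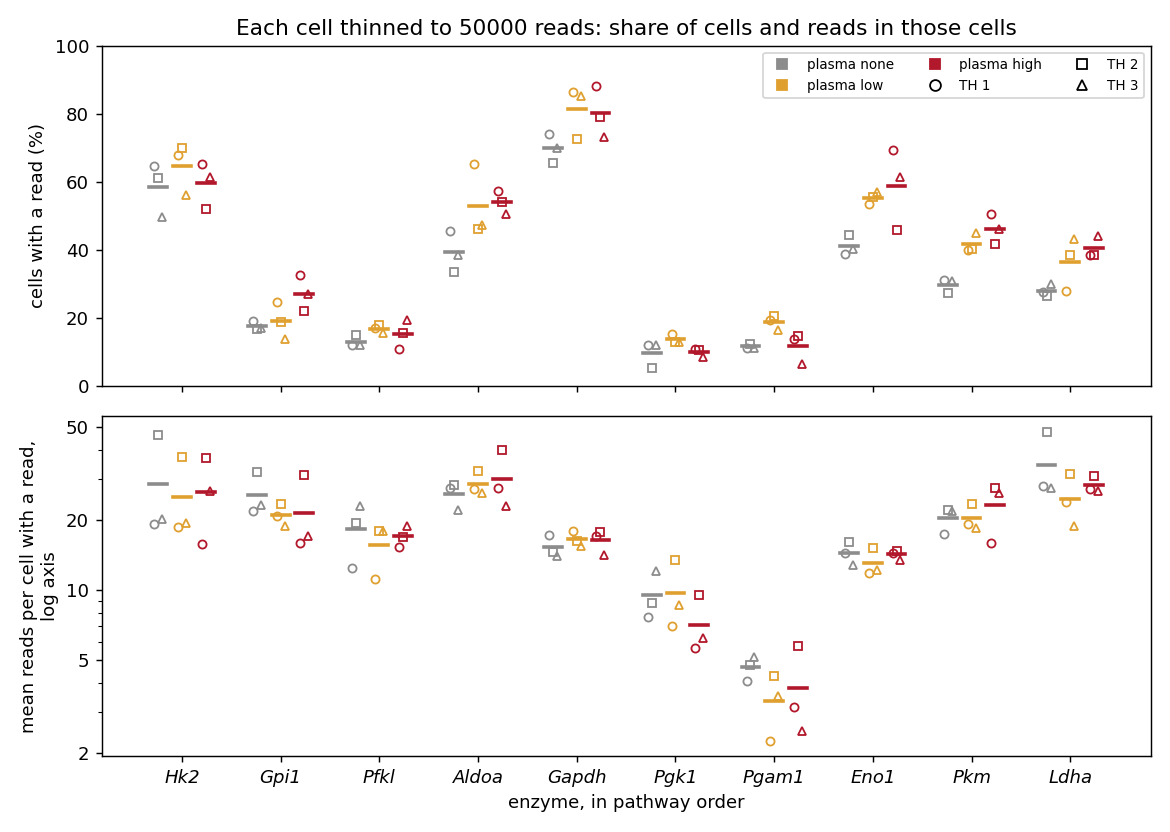
Upper panel: percent of cells with a read of each enzyme, each cell thinned to 50000 reads. Lower panel: mean reads in the cells with a read (log axis); colours are groups, symbols TH numbers and bars their mean. For Aldoa, Gapdh, Eno1, Pkm and Ldha the plasma none bar is lowest in the upper panel, while the lower panel shows overlapping groups.

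More genes were detected per cell in plasma low and high (medians above), so the shares have to be read against all genes. In plasma high against none, 6 of the 10 enzymes had a higher share in 3 of 3 TH numbers (Gpi1, Aldoa, Gapdh, Eno1, Pkm and Ldha), beside 35.5% of the tested genes, and the median difference was 9.87 percentage points beside 2.58. Among genes with at least 200 CPM, 41.9% had a higher share in 3 of 3 and the median difference was 4.17 points. In plasma low against none, all but Gpi1 had a higher share in 3 of 3, 9 of 10 beside 39%, with a median of 7.86 points beside 3.04. At 20000 reads per cell that count was 6, without Hk2, Pgk1 and Ldha, and as deposited it was 8, without Ldha. In high against none it was 5 at 20000 reads, without Eno1, and 7 as deposited, where Gapdh was out and Hk2 and Pfkl were in. At 100000 reads both counts were as at 50000. In plasma high against low, 3 of 10 were higher in share (Gpi1, Pkm and Ldha), beside 12.2%, or 2 without Ldha at 100000 reads, and the median difference was -0.12 points beside -0.32. There 2 of 10 were lower in share in 3 of 3 (Pgk1 and Pgam1), beside 900 of 5709 genes, and 3 were lower at 100000 reads. Reads per positive cell were higher in 3 of 3 TH numbers for no enzyme in plasma high against none, beside 5.31% of genes. This held for 1 enzyme, Gapdh, in plasma low against none, beside 4.32%, and for no enzyme in plasma high against low, beside 13.4%. They were lower in 3 of 3 for 2 enzymes in high against none (Gpi1 and Ldha), beside 31.8% of genes, and for 6 in low against none (Hk2, Gpi1, Pfkl, Pgam1, Eno1 and Ldha), beside 31.1%. In high against low 1 enzyme, Pgk1, was lower in 3 of 3, beside 12.2%. The median log2 ratio of reads per positive cell in high against none was -0.07 over the enzymes and -0.20 over the tested genes.

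Counting enzymes per cell gives the same view from the side of the cell. At 50000 reads, plasma none cells had reads of 3.18 ± 0.15 of the 10 enzymes, plasma low cells of 4.01 ± 0.14 and plasma high cells of 4.03 ± 0.32 (SD over 3 TH numbers). Plasma none ran from 3.08 to 3.36 over the TH numbers, plasma low from 3.92 to 4.17 and plasma high from 3.74 to 4.38, so plasma none lay apart from both. Genes of any kind with a read per cell, as deposited, were also more in plasma low and high, at medians of 1999 and 1939 beside 1696. The count of enzymes is therefore not read as particular to them. Cells without a read of any enzyme numbered 7, 4 and 1. Of plasma none cells, 9.25% had reads of exactly 5, beside 21.1% of plasma low and 21.4% of plasma high cells. The summed level of the 10 enzymes was 1349 ± 299.4, 1589 ± 378.9 and 1704 ± 238.6 CPM. The ranges overlapped across TH numbers, while within each TH number plasma none (1221, 1691 and 1135 CPM) was below plasma low (1477, 2011 and 1278) and plasma high (1631, 1971 and 1510).

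**Figure D4:**
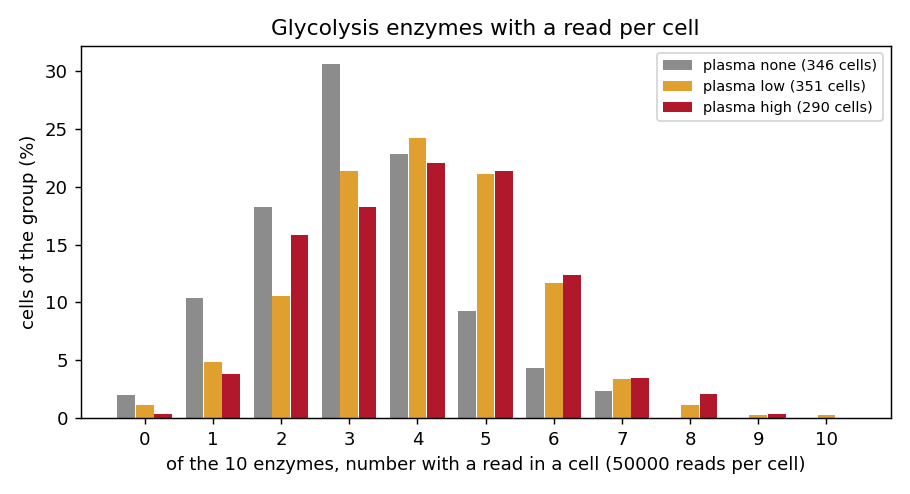
Percent of cells of each group by the number of the 10 enzymes with a read at 50000 reads per cell. The plasma none bars peak at 3 enzymes, while plasma low and plasma high peak at 4 and hold larger shares at 5 and 6.

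The enzymes were only weakly tied to each other from cell to cell. Over 987 cells, in 9 strata of group and TH number with at least 93 cells each, the mean Spearman correlation was at most 0.11, for Gapdh with Pkm, with a median of 0.03 over the 45 pairs. Among 1320 genes with a read in at least 30% of cells, those most like the summed enzyme reads were Cd81 (0.17), a tetraspanin of the cell surface, Ctsz (0.14) and Ctsd (0.13), lysosomal cathepsins, Ubb (0.14), a ubiquitin gene, and Gm45205 (0.13). The median gene had 0.01. These are descriptions over cells that share a group, a TH number and a fixed depth, in sparse counts.

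Other genes can supply the same steps. Their shares of a step rest on levels per kilobase of merged exon and depend on that length. Ldhb, the B subunit of lactate dehydrogenase, which favours the making of pyruvate from lactate, stood above Ldha on that measure. It made up 78.1% ± 5.999, 81.2% ± 2.76 and 77.4% ± 1.13 of the lactate dehydrogenase level in plasma none, low and high. For plasma none the sums were 316.96, 269.96 and 303.03 CPM, for plasma low 351.8, 412.8 and 344.03, and for plasma high 361.05, 478.9 and 371.8. Plasma none lay below both other groups throughout, with a log2 ratio of 0.44 ± 0.34 in high against none, which was 0.24 without TH 2. Hk2 made up 78.8% ± 15.04 of hexokinase in plasma none and 70.7% ± 3.25 in plasma high, and Hk3 19.1% ± 13.1 and 26.8% ± 1.85, shares that overlap. Eno3 made up 23.1% ± 19.2 of enolase in plasma none, and Pfkl 79.97% ± 9.57 of phosphofructokinase. Aldoa, Gapdh, Pgk1, Pgam1 and Pkm made up at least 92% of the mean level of their step in every group. Of the 19 genes listed as other glycolysis genes, 3 were tested in high against none: Ldhb, Tpi1, the triose phosphate isomerase (0.86 ± 0.73, higher in 3 of 3, but by 0.02 in TH 2), and Hk3 (0.62 ± 0.95, both signs).

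Transporters bring hexoses in and carry lactate out. Of 6 tested in high against none, 2 were higher and 1 was lower in 3 of 3 TH numbers, numbers that lie near the 18.8% and 13.8% of all tested genes. Slc2a5, a fructose transporter known as a microglia marker, was lower, at 816.5, 935.2 and 780.0 CPM in plasma none and 573.2, 733.3 and 621.9 in plasma high, with a ratio of -0.40 ± 0.10 and no overlap. Slc2a1, the GLUT1 glucose transporter, was higher at a far lower level, with 45.9, 24.3 and 41.8 CPM in plasma none and 77.6, 38.7 and 74.4 in plasma high (0.74 ± 0.08). One cell of TH 1 held 29.2% of its plasma high reads, that sum was 25.4 CPM without it, and the ratio was 0.43 ± 0.72 with both signs once the top cell of each sum was left out. The share of cells with a Slc2a1 read at 50000 reads differed by -1.43, 2.14 and -0.14 points in TH 1, 2 and 3. Slc16a7, the monocarboxylate transporter MCT2, was higher by 1.40 ± 1.21, past 2-fold, and also by 1.13 ± 0.54 in high against low. It was higher by 0.73 without TH 2, 1 cell of TH 1 held 28.6% of its plasma high reads, and without the top cell of each sum it had both signs in both comparisons. The largest mean difference downward was that of Slc16a3, MCT4, at -0.79 ± 1.15 with both signs.

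The neighbouring pathways were mixed, and their counts in high against none are again read beside the 18.8% of tested genes that were higher and the 13.8% that were lower in 3 of 3. Of 7 tested pentose phosphate genes, Taldo1, the transaldolase, was higher in 3 of 3 (0.75 ± 0.32), while G6pdx, the entry enzyme (-0.51 ± 0.53, and -0.22 without TH 1), and Pgd (-0.35 ± 0.28) were lower, the latter with both signs once the top cell of each sum was left out. Of 5 tested genes of pyruvate entry into mitochondria, Dld, a pyruvate dehydrogenase subunit, was higher (0.71 ± 0.30) and Mpc2, a subunit of the pyruvate carrier, was lower (-0.79 ± 0.43). In high against low, Dlat, another subunit of pyruvate dehydrogenase, was lower by more than 2-fold on average (-1.15 ± 1.36), but by 0.04 in TH 1, and its ratio was -0.39 without TH 3. Of 18 tested tricarboxylic acid cycle genes, 16 had a mean ratio above 0, as had 54.8% of all tested genes, and 5 were higher and 1 lower in 3 of 3, with a median of 0.31. Fh1, the fumarate hydratase, passed 2-fold (1.497 ± 0.51), from 12.98 to 15.1 CPM in plasma none to 31.6 to 55.8 in plasma high, and Suclg1, of succinyl-CoA ligase, was the lowest (-0.63 ± 0.80, and -0.18 without TH 3). Of 9 tested regulators of glycolysis, 3 were higher and 1 lower in 3 of 3, from Arnt, the partner of the hypoxia-inducible factors (-0.65 ± 0.38), to Egln2, a prolyl hydroxylase that marks them for breakdown (0.67 ± 0.32). Of 3 tested genes of gluconeogenesis and glycogen, none kept 1 sign, from Pck2 (-0.0025 ± 0.99) to Ugp2 (1.199 ± 1.29). Of 6 tested genes of the hypoxia response outside glycolysis, 1 was higher and 1 lower in 3 of 3, from Bnip3 (-0.26 ± 0.06, with both signs once the top cell of each sum was left out) to Higd1a (1.01 ± 1.12, both signs), with a median of 0.02.

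**Figure D5:**
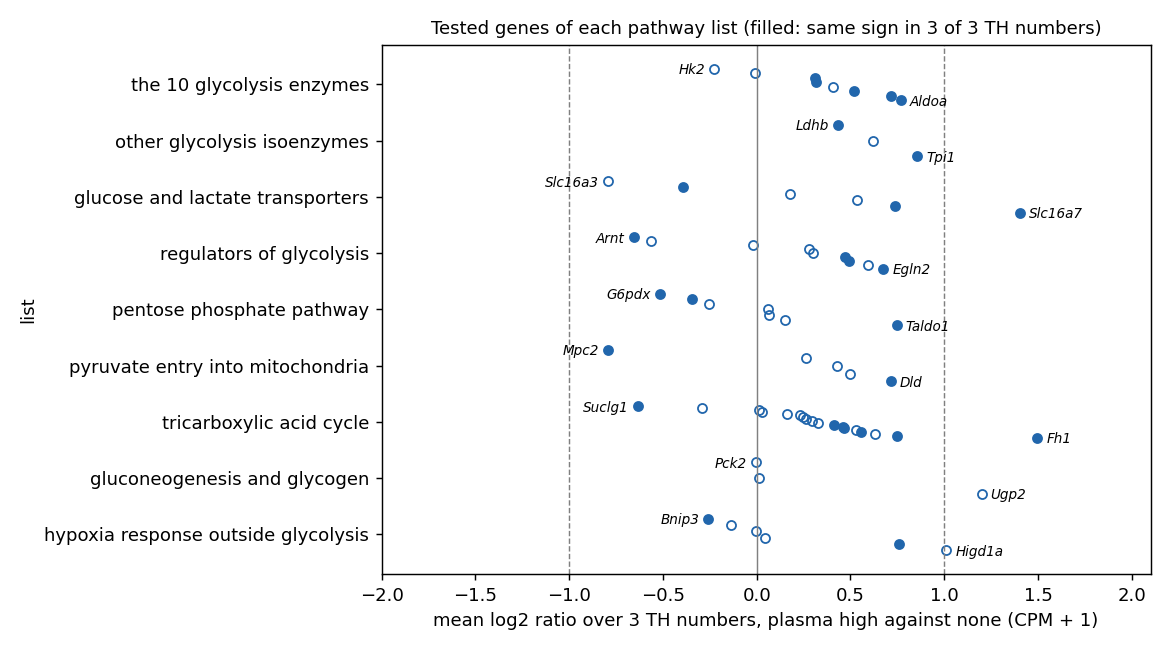
Mean log2 ratio of plasma high against none for each tested gene of the pathway lists; filled points have the same sign in 3 of 3 TH numbers, dashed lines mark 2-fold, and the gene with the lowest and highest mean of each list is named. Slc16a7 and Fh1 are the filled points past 2-fold, and none of the 10 enzymes lies there.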

How the data were processed

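Whole-number read counts per gene and cell were deposited by the authors in 3 tables, except that the deposited column of 1 cell, handled as a column of expected counts and rounded, holds 2 values that are not whole, for a reason not given in the sources used here. Per the submitters' processing notes, bcl2fastq, Trim Galore, STAR 2.5.3a, Seurat and the mm10 build were used, and the counting step is not given in the sources used here. Of 1111 labelled cells, 66 had no matching column and were not analysed here. No values were identical between cells.

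Cells with at least 50000 reads and 500 genes were summed by group and TH number, scaled with TMM factors (edgeR 4.0.16, R 4.3.3) to CPM, and compared as log2 ratios with a pseudocount of 1 CPM. No test was run, because each group is 1 sample, and the ratio function was tested on simulated data. Gene models follow GENCODE M21, which held 35546 of the 35583 identifiers, and promoters are RefSeq's. Thinning drew reads without replacement with a fixed seed. The members, lists and naming rule were chosen with earlier results of these data known. Named are all 10 enzymes, their isoenzymes, the list genes past 2-fold with 1 sign in 3 of 3 TH numbers, the largest mean rise and fall of each list, and the 5 genes most alike over cells. Others were named after their values were seen: those same-sign genes in the account of the lists, such as Slc2a1, Slc2a5 and Pgd. Alternatives changed scaling (DESeq2 1.42.0 size factors, total reads), pseudocount, filters, cell weights, depth, wells and TH numbers. For the list genes, leaving out the cell with the most reads of each sum, or 1 TH number, was chosen after seeing the data.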

Additional observations from a re-analysis of the deposited data

How the results depend on the processing

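No paired analysis was possible because no result comes from a test, so no fit with or without a replicate block exists, and the ratios are within TH numbers only as a description. Pkm and Aldoa in high against none stayed higher in 3 of 3 TH numbers under all 13 alternatives that keep the 3 TH numbers, from 0.67 to 0.82 and from 0.68 to 0.82, as did Gapdh (0.18 to 0.33). Gpi1 kept this in 12 of 13 and Ldha in 11 of 13. The median over the enzymes in high against none, 0.31, was 0.27 with total reads in place of TMM, 0.27 with cells of at least 100000 reads and 1000 genes, and 0.23 without the outermost wells, where 1 enzyme was lower in 3 of 3. In high against low that median was 0.00466 without the outermost wells. The number lower in high against low, 3, was 1 with DESeq2 size factors, with equal weight per cell and with thinning to 50000 reads, where 2 were higher in place of 4. In low against none, 1 enzyme was lower with equal weight per cell or thinning. Ldha in low against none then reversed, to -0.14 and -0.10, and Pfkl in high against low reversed to 0.057 with equal weight per cell. Without 1 TH number, the median ran from 0.24 to 0.36 in high against none, from 0.24 to 0.27 in low against none and from -0.031 to 0.096 in high against low, the negative value being without TH 1. The numbers higher then ran from 5 to 6, 5 to 8 and 4 to 5, and the numbers lower were 1 in each case, 0 to 2 and 3 to 4, but a call over 2 TH numbers is easier to meet, at 25.3% to 31.4% of tested genes. The mean share difference over the enzymes in low against none, 8.24 percentage points, was 7.57 at 20000 and 8.97 at 100000 reads per cell. With no filter on low genes, 11.4% of genes were higher in 3 of 3 in high against none and 9.37% in high against low. Leaving out ribosomal protein and mitochondrial genes, chosen after seeing the data, kept all counts within 1.5 times. The causes were not tested. Pgk1 and Pgam1 had the fewest reads of the enzymes in every group, and in Pfkl 1 cell held 20.0% of the plasma high reads.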

Other observations

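Kdm3a, a histone demethylase induced by hypoxia, had its highest levels in plasma low, with 53.6, 110.9 and 98.3 CPM in TH 1, 2 and 3, beside 11.4, 41.2 and 53.6 in plasma none and 9.8, 45.8 and 61.2 in plasma high. The log2 ratio was 1.47 ± 0.64 in low against none and -1.42 ± 0.85 in high against low. One cell of TH 2 held 33.2% of the plasma low reads, and without it that sum was 46.6 CPM, close to those of TH 2 in the other groups. Leaving the top cell out of all sums gave ratios of 1.18 ± 1.30 and -1.08 ± 1.29. Arnt was lower in plasma low than in plasma none in 3 of 3 TH numbers, with 39.1, 25.7 and 21.3 CPM beside 52.2, 87.5 and 49.4, a ratio of -1.11 ± 0.66. In plasma high it had 24.4, 58.3 and 39.3 CPM, a ratio of 0.45 ± 0.97 to plasma low with both signs. Both comparisons of plasma low share its cells, and no test was possible.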
